A study of Mus musculus with 15 samples.

Results

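The measurements described here are the heights and widths of H3K4me1/2 ChIP-seq peaks at 16280 genomic regions where each of 6 peak lists from mouse B cell lymphomas holds exactly 1 peak. The regions were found by joining all 218690 peaks that overlapped by at least 1 base, which gave 40754 merged regions, and by keeping those with a single peak from every list. The members are 39.95% of the merged regions. Of the rest, 8827 regions also had a peak of each list but more than 1 peak in at least 1 of them, and 15647 had no peak in at least 1 list.

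The study profiled B220+ cells, enriched from mouse lymphoma tumours with magnetic beads and not cultured. The samples are labelled by transduction with an empty vector (EV) or with a vector for a hairpin RNA that targets Kmt2d (sh-Kmt2d). The 3 EV lists all carry title number 87 (EV 1, 2 and 3). Of the 3 sh-Kmt2d lists, sh-Kmt2d 1 carries title number 103, and sh-Kmt2d 2 and 3 carry title number 110. The sources used here do not give the strain, other alleles, age or the promoter behind the hairpin. Each title number occurs in 1 group of lists only, so that title number and group cannot be told apart. Nothing in the labels says that the lists came from separate animals, so the p-values below measure only the spread between these lists.

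Kmt2d encodes a large methyltransferase of histone H3 lysine 4. H3K4me1 marks enhancers, both poised and active, and H3K4me2 marks enhancers as well as the flanks of promoters, so an antibody that binds both modifications maps regulatory DNA broadly. KMT2D and its relative KMT2C place much of the H3K4me1 at enhancers, and KMT2D is among the genes most often mutated in B cell lymphomas of germinal centre origin.

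RNA libraries from the same study gave a check of the labels. Kmt2d stood at 104.2, 283.2, 526.9 and 544.9 CPM (counts scaled to a common library total) in the 4 EV RNA libraries and at 5.231, 18.79, 50.4, 61.43 and 225.1 CPM in the 5 sh-Kmt2d RNA libraries. The highest sh-Kmt2d library lay above the lowest EV library, so the groups overlapped. That highest library carries the same title as list sh-Kmt2d 1, the lowest EV library the same title as EV 3, and the library at 18.79 CPM the same title as sh-Kmt2d 3, although the labels do not state that equal titles mean the same animal. All 8 B cell markers were detected, with summed levels of 11562 to 13501 CPM in EV and 12573 to 18305 CPM in sh-Kmt2d. The sums hide a sh-Kmt2d library that stood apart, the one with Kmt2d at 5.231 CPM: its Ptprc was 56.53 CPM against 1629 to 1980 CPM in EV, its Cd22 456.3, its Ms4a1 721.3 and its Cd79b 10674 CPM. That library was also the smallest, with 5925745 counts against 13024141 to 29284830 in the others. Ptprc was also low, at 672.8 CPM, in the library with Kmt2d at 18.79 CPM. Cd79b and Cd22 separated the groups in all libraries. Cd79b was 1786 to 2475 CPM in EV against 2758 to 10674 CPM in sh-Kmt2d, and Cd22 2316 to 2577 against 456.3 to 2099 CPM. The other B cell markers overlapped. The 6 T cell markers summed to 30.42 to 42.5 and 42.67 to 96.34 CPM, and the 5 macrophage markers to 151.3 to 537.5 and 119.1 to 194 CPM, and none of these markers was at 0 in any library. The T cell markers did not move together: Cd3g was 4.503 to 10.61 CPM in EV against 23.11 to 70.63 CPM in sh-Kmt2d, Cd4 went the other way with 8.183 to 23.11 against 1.181 to 6.556 CPM, and the other 4 overlapped. Of the macrophage markers, Csf1r was 24.29 to 139.5 CPM in EV against 7.649 to 20.15 CPM in sh-Kmt2d, and the others overlapped. The part of these levels in the ChIP results was not tested.

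The shared regions were the taller part of each list. The lists held 34894 to 37479 peaks, of which the members made up 43.44% to 46.66%, and between 62.83% and 70.62% of the members lay above the middle rank of their own list by height. Height is read from column 7 of the lists, which carries no name or unit, so it is given in listed units. Regions that lacked a peak in at least 1 list had median heights of 25 to 28 and median widths of 192 to 290 bases. A member spanned a median of 961 bases, all members together spanned 17.55 Mb, and a median of 68.25% of a member's span was covered by all 6 peaks. In 182 members no single base was common to all 6 peaks, because the peaks were joined through one another.

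Raw heights did not separate the groups. The median height of the members was 65, 70 and 66 in EV 1, 2 and 3 and 60, 74 and 55 in sh-Kmt2d 1, 2 and 3. The sh-Kmt2d lists therefore held both the highest and the lowest medians, with all EV lists between them. The group means were 67 ± 2.65 and 63 ± 9.85 (SD, n = 3 each; two-sided exact permutation test, p = 0.5, adjusted over 3 comparisons 0.5). Without sh-Kmt2d 3 the difference was 0.

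Median width was 829, 848 and 813 bases in the EV lists and 737, 842 and 699 bases in the sh-Kmt2d lists. Lists sh-Kmt2d 1 and 3 were narrower than all EV lists, and sh-Kmt2d 2 lay among them. The means were 830 ± 17.5 and 759 ± 74.1 bases (SD, n = 3 each; exact permutation test, p = 0.3, adjusted 0.45), and 3 lists against 3 cannot give a p under 0.1. The sources used here do not give the depth of the lists or any scaling between them, so the comparisons below use the percentile rank of a region among the 16280 members of its own list, from 0 to 100. Ranks show which regions stand higher or lower than others, and a change of all regions alike cannot be seen in them.

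**Figure D1:**
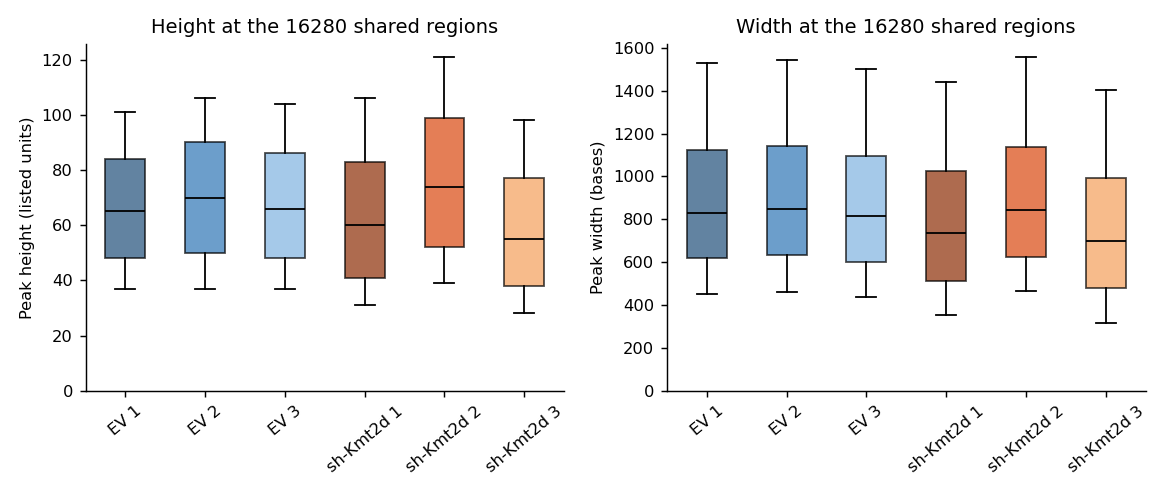
Height in listed units (left) and width in bases (right) of the 16280 shared regions in each list. Lines are medians, boxes the middle 50% of regions and whiskers the 10th and 90th percentiles. Lists sh-Kmt2d 1 and 3 sit lowest in both panels (median heights 60 and 55, median widths 737 and 699 bases), while sh-Kmt2d 2 has the highest median height, 74.

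The order of the regions was much alike in all lists. Spearman correlations of height over the 16280 regions ran from 0.873 to 0.928 between EV lists, from 0.92 to 0.933 between sh-Kmt2d lists and from 0.828 to 0.932 between a list of each group. These are correlations across regions of the same libraries and carry no test. The lowest belonged to EV 2 with sh-Kmt2d 1, at 0.828, while EV 1 with sh-Kmt2d 2, also a pair across groups, reached 0.932. For width the ranges were 0.882 to 0.929, 0.902 to 0.912 and 0.845 to 0.927. Summits were read from column 6, which carries no name, as the positions of maximum height. They lay a median of 52 to 71 bases apart between lists of different groups. The medians were 54 to 60 bases between EV lists and 55 to 58 bases between sh-Kmt2d lists. The 2 lists of title number 110 were the most alike in height, at 0.933.

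No shared region differed between the groups in height rank at an adjusted p under 0.05 (limma over all 16280 regions, Benjamini-Hochberg), so the share called was 0% in either direction. The smallest adjusted p was 0.132. The fit with title number as a random block, whose estimated correlation was -0.206, did change the call, with 242 regions higher in sh-Kmt2d and 140 below EV. At an unadjusted p under 0.05, 1086 regions (6.67%) ranked higher in sh-Kmt2d and 918 (5.64%) ranked lower. That balance depended on the ranking: with ranks taken over each whole list, 771 were higher and 1388 lower. In 1463 regions (8.99%) all 3 sh-Kmt2d ranks lay above all 3 EV ranks, and in 1368 (8.4%) all lay below.

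The differences were small for most regions. The sh-Kmt2d minus EV difference in mean height rank lay between -14.4 and 15 points for the middle 90% of regions, and 76.33% of regions differed by less than 10 points. Its median standard error was 6.58 points. Differences beyond 20 points occurred in 315 regions that ranked higher in sh-Kmt2d and 212 that ranked lower, and the extremes were -36.1 and 47.95 points. On a log2 scale, with heights quantile-normalised over the members, 98.2% of regions differed by less than 0.5, a single region by at least 1 upward and 0 regions by as much downward.

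On that log2 scale limma called 8 regions higher in sh-Kmt2d (0.0491%) and 0 lower (0%). All 8 calls were absent when any 1 of the sh-Kmt2d lists was left out, where the smallest adjusted p was 0.124 to 0.54, and 1 of them was called without EV 1. Without EV 3, in contrast, 202 regions were called higher and 60 lower, the 8 among them.

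**Figure D2:**
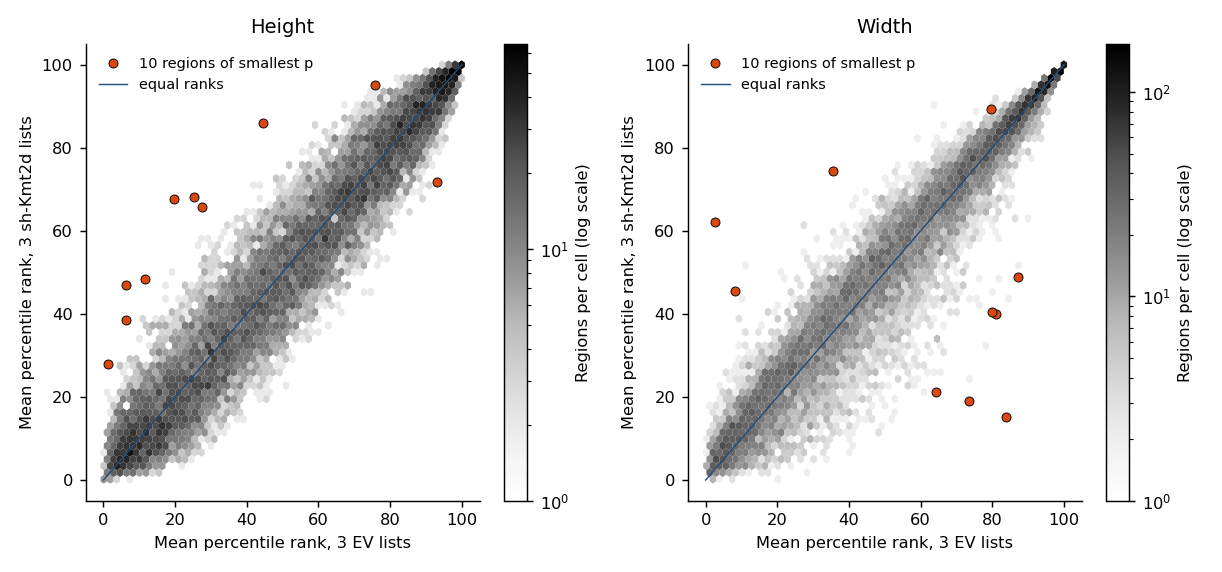
Mean percentile rank of each shared region in the 3 EV lists (x axis) and the 3 sh-Kmt2d lists (y axis), for height (left) and width (right); grey shows regions per cell on a log scale, and orange points are the 10 regions of smallest p. In height 9 of the 10 lie above the line of equal ranks, and in width 4 lie above it and 6 below.

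Since no region passed the threshold, the 10 of smallest p are described by their values. Of these, 9 ranked higher in sh-Kmt2d and 1 lower, and no group overlapped the other in any of the 10. Choosing by smallest p favours such separation, so it is no further evidence. A region with no peak in a sh-Kmt2d list could not be a member, so low EV regions that ranked still lower there could be absent. The part of that rule in the split of directions was not tested. Coordinates are mm9 and as the lists give them, and no gene annotation of that build was used, so the regions are named by position alone.

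The region of smallest p, chr15:5504421-5505257, had heights of 28, 32 and 38 in the EV lists and 60, 71 and 50 in the sh-Kmt2d lists. It stood among the lowest members in EV, at percentile ranks of 1.9, 5.3 and 11.6, and near the middle in sh-Kmt2d, at 50.6, 46.7 and 43.5. The difference was 40.7 ± 6.62 points (SE, limma, adjusted p = 0.132), or 1.02 ± 0.17 on the log2 scale (adjusted p = 0.0209). Its peaks were also wider, at 392, 434 and 445 bases against 728, 795 and 645 bases, and it was the only region among the 10 of smallest p for both measures. It had 5 other members within 250 kb, whose height differences ran from -1.71 to 10.1 points with 4 of the 5 higher in sh-Kmt2d.

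Region chr2:61401043-61402033 had heights of 47, 47 and 52 against 85, 82 and 71, a difference of 42.9 ± 7.2 points (SE, limma, adjusted p = 0.132). Its summits lay within 45 bases of each other in all 6 lists. Its widths of 671, 547 and 765 bases in EV overlapped those of 732, 990 and 616 bases in sh-Kmt2d. Height thus differed there without a separation in width. Its 8 neighbours within 250 kb differed by -10.6 to 16.5 points with a median of 1.55.

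The largest rank difference of all members was at chr10:99375098-99376724, with heights of 42, 35 and 55 against 72, 85 and 79 (47.95 ± 8.07 points, SE, limma, adjusted p = 0.132). This broad region was 1135, 1162 and 1478 bases wide in EV and 1541, 1571 and 1620 bases wide in sh-Kmt2d. Its summits were spread over 916 bases, so by this reading of the unnamed column the tallest point was not the same part of the region in every list.

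These regions stood at different heights in the EV lists. Region chr10:6084842-6085490 was close to the bottom of the EV lists, with heights of 26, 25 and 27, against 48, 51 and 38 in sh-Kmt2d (26.8 ± 5.28 points, SE, limma, adjusted p = 0.227). Region chr9:72380526-72383544 was tall in EV as well, with 83, 91 and 90 against 115, 133 and 122 (19.3 ± 3.57 points, adjusted p = 0.191). Its width of 2687 to 2928 bases differed little between the 6 lists. The other regions that ranked higher lay at chr9:96159362-96160588 (heights 50, 52 and 49 against 83, 83 and 65), chr6:52598615-52599685 (35, 41 and 39 against 61, 66 and 56), chr12:42952740-42953568 (35, 36 and 28 against 55, 59 and 46) and chr4:26274012-26274804 (76, 55 and 57 against 100, 101 and 108).

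The region that ranked lower, chr19:36999634-37000609, had heights of 101, 111 and 117 in EV against 81, 98 and 70 in sh-Kmt2d. The difference was -21.2 ± 4.15 points (SE, limma, adjusted p = 0.227). In raw height its separation was narrow, since 98 in sh-Kmt2d 2 lay just under 101 in EV 1. Of the 8 regions called on the log2 scale 7 were among these 10, and the other was chr4:9043040-9043728, with heights of 37, 40 and 41 against 79, 68 and 50.

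**Figure D3:**
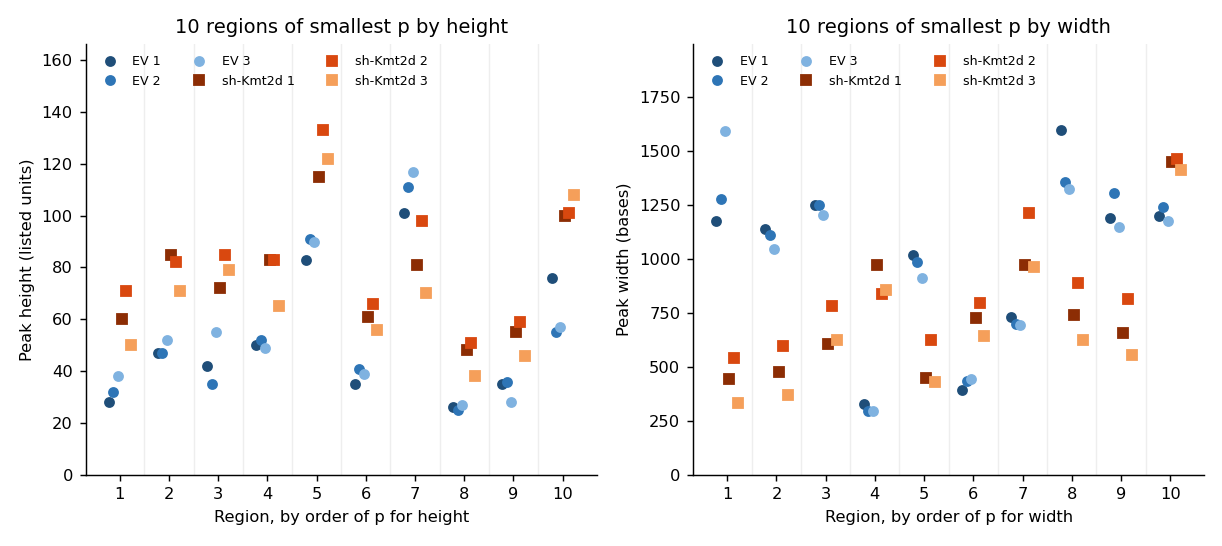
Height in listed units of the 10 regions of smallest p for height (left) and width in bases of the 10 of smallest p for width (right), in order of p; circles are EV lists and squares sh-Kmt2d lists. The groups do not overlap in any of these regions, with height region 7 and width regions 1, 2, 3, 5, 8 and 9 lower in sh-Kmt2d.

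Width gave no call at an adjusted p under 0.05 either, which is again 0% in each direction, and its smallest adjusted p was 0.0702 (limma). At an unadjusted p under 0.05, 806 regions (4.95%) were wider in rank in sh-Kmt2d and 825 (5.07%) narrower. By whole-list rank 1478 were wider and 626 narrower, and limma without trend and robust variances gave 1048 and 726, so the near balance held for the ranks among members and not for these. With title number as a random block 8 regions were called wider and 11 narrower at an adjusted p under 0.05. All sh-Kmt2d ranks lay above all EV ranks in 1662 regions (10.2%) and below in 1033 (6.35%). The tail was nevertheless longer on the narrow side: 567 regions were narrower by more than 20 points and 205 wider, and the middle 90% of differences ran from -16.6 to 12.4 points. Leaving out sh-Kmt2d 2, the list whose widths were closest to EV, gave 25 narrower and 2 wider regions at an adjusted p under 0.05.

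Of the 10 regions of smallest p for width 6 were narrower and 4 wider in sh-Kmt2d. The first, chr4:135128011-135129605, was 1175, 1278 and 1594 bases wide in EV and 446, 542 and 332 bases in sh-Kmt2d (-68.6 ± 5.47 points, SE, limma, adjusted p = 0.0702). Its heights were also lower, at 48, 42 and 50 against 27, 37 and 24. At chr11:96147208-96148349 the widths were 1141, 1109 and 1047 against 478, 595 and 371 bases (-54.4 ± 4.74 points, adjusted p = 0.0702).

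Width and height came apart at chr1:88254593-88255916. The peak was 1251, 1250 and 1205 bases wide in EV against 608, 784 and 624 bases in sh-Kmt2d, while its heights of 72, 78 and 67 overlapped those of 70, 79 and 61. The height was alike in both groups although the listed peak covered less sequence in sh-Kmt2d. The opposite case was chr6:7799280-7800272, at 330, 295 and 294 bases in EV and 972, 836 and 858 bases in sh-Kmt2d (59.5 ± 6.51 points, SE, limma, adjusted p = 0.127), where heights were near the bottom of all lists, at 25 to 28 and 29 to 30.

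Over all members the differences in height and width had a Pearson correlation of 0.406 across the 16280 regions, and 63.56% had the same sign in both. At an unadjusted p under 0.05 in each measure, 187 regions were higher and wider in sh-Kmt2d, 163 lower and narrower, and 19 went opposite ways. Height and width come from the same reads, so they are not separate evidence.

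The 5 tallest and 5 widest members were chosen by their mean rank over all 6 lists, so their high rank in both groups follows from the choice, and their values are given as a description. The tallest by mean rank, chr1:90172656-90174922, had heights of 210, 219 and 215 in EV against 212, 236 and 182 in sh-Kmt2d. The tallest on X, chrX:166416405-166418092, was among the 5 tallest members, with 155, 168 and 226 against 210, 178 and 171. The widest, chr2:44965326-44973806, measured 8363, 8229 and 8384 bases against 8374, 8393 and 8282 bases. The heights of the 5 widest were high but not the highest, with mean ranks of 92.9 to 99.4 in EV and 89.1 to 99.3 in sh-Kmt2d.

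When the members were cut into 10 equal classes of 1628 by mean height rank over all lists, the median difference between groups stayed between -1.23 and 0.33 points. Ranks fill the same scale in every list, which holds such class medians small by construction. They cannot show whether peaks of some heights differed more than others. By mean width, the narrowest class had a median difference in height rank of 0.86 points, and 117 of its regions were higher against 34 lower by unadjusted p under 0.05. In the widest class the median was -0.25 points, with 86 higher and 114 lower. Each count is out of 1628 regions, and over all members 6.67% were higher and 5.64% lower at that threshold. A member must have a peak in all 6 lists, so a region without a peak in 1 list or more left the set. Such losses were uneven. Of the regions lost through a single list, 65, 188 and 144 lacked the peak in EV 1, 2 and 3. In sh-Kmt2d 1, 2 and 3 the counts were 431, 59 and 884. These lost regions had a median height of 31 and a median width of 358 bases. The part of this rule in the class counts was not tested.

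The number of other members within 250 kb, a measure of how densely the marked regions lie, was related to the difference as well. The class with the fewest neighbours (0 to 3) had a median difference in height rank of 1.67 points, and 59.21% of its regions ranked higher in sh-Kmt2d. With unadjusted p under 0.05, 182 of them were higher and 56 lower. Each class holds 1628 regions, and over all members 6.67% were higher and 5.64% lower at that threshold. In the class with the most (15 to 35) the median was -1.58 points, 41.15% of regions ranked higher, and by the same threshold 65 were higher and 138 lower. In the sparsest class the median deviation from the mean of the 6 lists was -1.36, -1.96 and -0.36 points in EV 1, 2 and 3 and 1.29, -0.09 and 1.27 points in sh-Kmt2d 1, 2 and 3, so every EV list lay below every sh-Kmt2d list. In the most crowded class it was 0.53, 2.61 and -0.49 points in the EV lists and -1.45, 0.49 and -1.2 points in the sh-Kmt2d lists, and the groups overlapped: EV 3 lay below sh-Kmt2d 2.

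**Figure D4:**
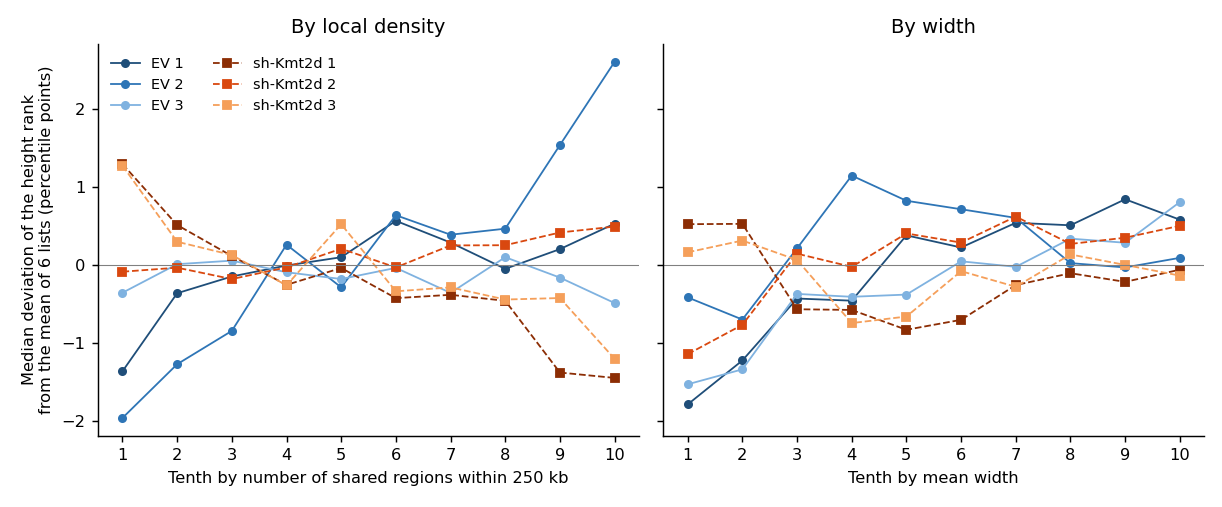
Median deviation of each list's height rank from the mean of the 6 lists, in percentile points, for 10 equal classes of shared regions by the number of other members within 250 kb (left) and by mean width (right), from lowest to highest. EV 2 reaches 2.61 points in the most crowded class, while sh-Kmt2d 1 and 3 lie at -1.45 and -1.2; in the sparsest class the 3 EV lists lie below the 3 sh-Kmt2d lists.

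By chromosome, the X stood apart in level and in difference. The 416 members on X had median height ranks of 19.6, 21.5 and 22 in EV against 29.3, 23.6 and 30.6 in sh-Kmt2d, far under the middle rank of 50 in all lists and without overlap between the groups. The median difference of its regions was 4.17 points, and 72.84% ranked higher in sh-Kmt2d (two-sided exact permutation test over lists, p = 0.1, the smallest possible, and 0.333 adjusted over 20 chromosomes). Leaving out 1 list at a time gave 2.93 to 5.3 points.

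In raw heights the X medians were 44, 47 and 46 against 44, 51 and 41, and the autosomal medians were 65.5, 71 and 67 against 60, 75 and 55. The median log2 height on X minus that on the autosomes was -0.57, -0.6 and -0.54 in EV against -0.45, -0.56 and -0.42 in sh-Kmt2d, where the groups overlapped (exact permutation test, p = 0.2, adjusted over 3 comparisons 0.45). The lists with the highest X ranks, sh-Kmt2d 1 and 3, were also those with the lowest autosomal medians, and the part of list height in the X result was not tested. The lists named 10, 10, 0, 0, 7 and 6 peaks on the Y, none of them in a member.

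Chromosome 13 had the next largest upward difference, with median ranks of 48.1, 47.1 and 48.3 in EV against 51.9, 51.2 and 51.6 in sh-Kmt2d and a median over its 736 regions of 1.47 points. Chromosomes 7 and 8 had the largest downward differences, -1.72 and -1.49 points, and there the groups overlapped. In all, the list medians did not overlap on 6 of 20 chromosomes, 3 of them higher in sh-Kmt2d (3, 13 and X) and 3 lower (4, 9 and 11). Such a separation in either direction is the outcome with p = 0.1, and the smallest adjusted p was 0.333 (exact permutation test). On chromosome 9 only the list medians separated: its regions had a median difference of -0.0174 points, and 49.94% ranked higher in sh-Kmt2d.

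**Figure D5:**
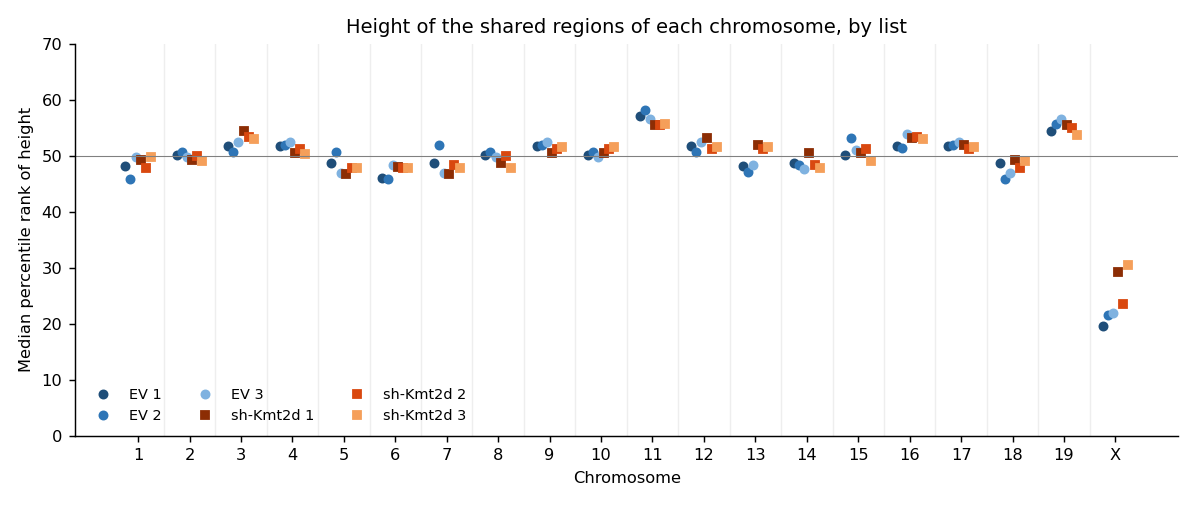
Median percentile rank of height over the shared regions of each chromosome, 1 point per list (circles EV, squares sh-Kmt2d). The X lies at 19.6 to 30.6 in all lists and the autosomes near the middle rank, and the sh-Kmt2d points of chromosomes 13 and X lie above their EV points.

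The differences of adjacent members were weakly correlated. The Pearson correlation between the height differences of neighbouring regions was 0.123 over 3185 pairs less than 2000 bases apart, 0.177 over 2117 pairs from 2000 to 10000 bases, 0.136 over 7119 pairs up to 100000 bases and 0.0997 over 3839 pairs farther apart. The signs matched in 53.44% to 56.12% of pairs. Each such pair comes from the same 6 libraries. The height differences had an SD of 8.857 points over all regions, with a median standard error of 6.583 points. Noise of that size lowers such correlations, so they do not show how much of a difference neighbours share.

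The edge of the set was uneven between lists. Of 1771 regions that missed membership because a single list had no peak, 65, 188 and 144 lacked it in EV 1, 2 and 3 and 431, 59 and 884 in sh-Kmt2d 1, 2 and 3. Of 2973 regions with 2 peaks in 1 list and 1 in each other, 382, 316 and 325 had the pair in the EV lists and 734, 332 and 884 in the sh-Kmt2d lists. Lists sh-Kmt2d 1 and 3, the lowest and narrowest at the members, were highest in both counts, and sh-Kmt2d 2 was the lowest of all for missing peaks. The regions missing from 1 list had a median height of 31 and width of 358 bases, those with 2 peaks 51 and 914 bases, and the members 65 and 798 bases.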

How the data were processed

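H3K4me1/2 ChIP-seq of 6 samples (3 EV, 3 sh-Kmt2d) was used as the authors' deposited peak lists, 1 per sample. The authors deposited a signal in unnamed column 7, read here as the peak's height, and how it was scaled is not stated. The deposited score in unnamed column 5, of unstated definition, served for 1 stricter alternative. Unnamed column 6 was read as the position of the summit. Coordinates are mm9, per the submitters' processing notes. The peak caller, its threshold, the input and the read depth are not given in the sources consulted. The lists therefore give no interval for a height. The RNA libraries (4 EV, 5 sh-Kmt2d) were deposited as counts per gene, and the submitters' processing notes name CASAVA 1.8.2 and HTSeq 0.6.0. CPM here divides a count by the sum over genes, without the 5 summary rows of HTSeq.

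Peaks were joined where they overlapped by 1 base or more, in Python 3.11.15 with pandas 2.3.3. Heights and widths (column 3 minus column 2) were turned into percentile ranks among the 16280 shared regions of each list, with ties averaged. limma 3.58.1 with a mean trend and robust variances compared the groups without covariates, adjusted by Benjamini-Hochberg over all regions, and was tested on simulated data. List and chromosome medians were compared by the two-sided exact permutation test over 20 divisions of 6 lists (scipy 1.17.1). Named regions were the 10 of smallest p for each measure, because none passed, and the 5 tallest and 5 widest by mean rank. The members, the rule and the lists were chosen with earlier results of these data known. Local density and the X level were examined after the ranks had been seen. The 458 members on chromosome 18 were counted but not named. Alternatives covered the scale, overlap, score and height filters, limma settings, title number and each list left out, and, chosen after seeing the data, list median as a term, autosomes only and the log2 scale with each list left out.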

Additional observations from a re-analysis of the deposited data

Results flagged for a closer look

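Kmt2d stood at 225.1 CPM in 1 of the 5 sh-Kmt2d RNA libraries, the one that carries the same title as list sh-Kmt2d 1. The other 4 lay between 5.231 and 61.43 CPM. The gap to its nearest neighbour was 0.744 of the group's range, above Dixon's 95% critical value of 0.71 for 5 samples. That ratio was taken on unlogged CPM, and the flag depends on this scale. Chance flags about 1 in 20 groups. The 4 EV libraries, with a ratio of 0.406, had no such sample. Whether this bears on the heights of list sh-Kmt2d 1 was not tested.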

How the results depend on the processing

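No paired analysis was possible because the replicate numbers only follow sample order and the title suffixes of the groups share a single number. No height call was made with ranks over whole lists, ordinary limma, the stricter overlap or score, the 75% tallest regions, autosomes only or the list median as a term. Among these settings the smallest adjusted p for height was 0.0708 (limma), in the 75% tallest regions. With the list median as a term alone, limma gave a smallest adjusted p of 0.601 for height and 0.614 for width. On the log2 scale 8 regions were called higher by height. With title number as a random block, whose estimated correlation was negative (-0.206 for height, -0.201 for width), limma called 242 regions higher and 140 lower by height and 8 wider and 11 narrower. Title numbers lie within groups, so a negative correlation there lowers the standard error of the group difference. Ordinary limma called 1 wider and 4 narrower, and the 75% tallest regions gave 1 wider and 2 narrower. The causes were not tested. Leaving out each list gave 0 calls by height, 0 to 2 wider and 0 to 25 narrower, both highest without sh-Kmt2d 2. On the log2 scale it gave 0 to 202 higher and 0 to 60 lower.

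At an unadjusted p under 0.05, counts moved by over 1.5 times as follows. By height they were 685 higher and 560 lower with list median as a term, 624 and 517 without sh-Kmt2d 3, 1807 and 1643 with the block, and 1388 lower by whole-list rank. By width they were 395 wider and 414 narrower with list median as a term, 492 and 530 without sh-Kmt2d 3, 1566 and 1320 with the block, 1478 wider by whole-list rank, 1232 wider without sh-Kmt2d 2, and 544 narrower among the tallest 75%. The balance of the counts turned in some settings. By height it turned by whole-list rank only, to 771 higher against 1388 lower. By width, with 806 wider and 825 narrower among members, wider regions were more numerous by whole-list rank (1478 and 626), ordinary limma (1048 and 726), the block, the tallest 75% (748 and 544), without sh-Kmt2d 2 (1232 and 1069) and without EV 3 (823 and 821).

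Without the requirement of a single peak per list 25107 regions were shared. Leaving out each list gave -9.5 to 0 for the difference in median height and -112 to -40.5 bases for width, 1.07 to 2.18 points for chromosome 13, -2.29 to -0.96 for chromosome 7 and -2.14 to -1.13 for chromosome 8. The 10 regions of smallest p for each measure and chromosomes 7, 8, 13 and X kept their direction, and the difference in median height was 0 without sh-Kmt2d 3. The unknown depth and peak threshold limit all heights.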
